A study of Homo sapiens with 6 samples.

Results

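MDA-MB-231 cells, an established human triple-negative breast cancer line, were sequenced as 3 groups of 2 samples. The group NC carries the genotype label control, and KO1 and KO2 both carry the label ARID1A knockout. KO2 was compared directly with KO1, so that both sides share one labelled genotype, with NC printed beside them. The comparison covers 4 of the 6 samples and 14428 of the 58174 gene IDs in the table, those with a mean over KO1 and KO2 of at least 1 CPM (gene counts set relative to the size of the library). The labels give no guide sequence, edited position, passage or treatment, and do not say whether KO1 and KO2 are single clones or pools. The table holds 1 column per group, which may be 1 library or the pair combined. No spread between cultures can therefore be computed, no p-value is given, and every bracketed interval is a 95% interval that covers counting error only.

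ARID1A is a DNA-binding subunit of the canonical BAF complex, an ATP-driven remodeller that moves and evicts nucleosomes at enhancers and promoters. Cell lines made by separate knockout events can differ in the lesion they carry and in anything else that changed while each line was grown out. Several of the gene groups described below belong to known programmes. ATF4 is a transcription factor whose translation increases when the initiation factor eIF2 is phosphorylated in amino acid shortage or endoplasmic reticulum stress. It acts on C/EBP-ATF response elements in genes for amino acid supply and stress signalling. E2F factors drive the replication genes that precede S phase, and SREBP factors drive cholesterol synthesis when sterols are low.

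The promoters below are shown because they hold letters of the response elements named above, in genes that differed between KO2 and KO1. They were chosen after the values were seen, from list members with a match and in order of the size of the difference. The choice did not cover every chromosome, so a member with a match and a larger difference may not be printed. Each is the RefSeq window of 250 bases before to 50 after the gene's start, on GRCh38.p14, written 5′ to 3′ on the gene's strand. Capitals mark TGATGNAA, a C/EBP-ATF core, in CHAC1 (chr15:40953221-40953520, plus), ASNS (chr7:97872359-97872658, minus) and ATF3 (chr1:212565157-212565456, plus), all lower in KO2. Capitals mark TTTNGCGC, an E2F core, in E2F2 (chr1:23531184-23531483, minus, with 2 overlapping matches), POLA1 (chrX:24693668-24693967, plus) and POLE2 (chr14:49688165-49688464, minus), all higher in KO2. Both strands were searched.
CHAC1: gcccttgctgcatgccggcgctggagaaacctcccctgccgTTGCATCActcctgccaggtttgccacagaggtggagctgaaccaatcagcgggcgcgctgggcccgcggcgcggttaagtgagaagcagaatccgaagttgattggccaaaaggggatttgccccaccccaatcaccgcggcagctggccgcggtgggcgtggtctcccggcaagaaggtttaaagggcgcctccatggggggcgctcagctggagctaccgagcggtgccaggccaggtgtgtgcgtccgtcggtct
ASNS: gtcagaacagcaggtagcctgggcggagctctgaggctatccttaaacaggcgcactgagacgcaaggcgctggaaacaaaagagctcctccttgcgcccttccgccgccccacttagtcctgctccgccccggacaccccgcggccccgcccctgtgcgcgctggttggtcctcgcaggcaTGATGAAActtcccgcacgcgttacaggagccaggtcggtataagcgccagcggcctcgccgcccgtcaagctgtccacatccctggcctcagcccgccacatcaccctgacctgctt
ATF3: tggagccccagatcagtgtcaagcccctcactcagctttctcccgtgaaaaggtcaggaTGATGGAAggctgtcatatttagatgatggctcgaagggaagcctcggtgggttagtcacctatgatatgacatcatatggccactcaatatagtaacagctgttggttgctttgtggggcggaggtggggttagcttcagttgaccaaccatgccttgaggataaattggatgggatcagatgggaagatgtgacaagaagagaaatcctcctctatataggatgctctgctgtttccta
E2F2: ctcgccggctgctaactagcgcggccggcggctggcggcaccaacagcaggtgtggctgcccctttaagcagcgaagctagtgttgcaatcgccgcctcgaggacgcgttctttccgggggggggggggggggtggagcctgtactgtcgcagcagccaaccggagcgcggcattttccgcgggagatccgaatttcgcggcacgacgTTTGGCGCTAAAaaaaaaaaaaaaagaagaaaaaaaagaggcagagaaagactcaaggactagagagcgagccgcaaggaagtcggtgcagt
POLA1: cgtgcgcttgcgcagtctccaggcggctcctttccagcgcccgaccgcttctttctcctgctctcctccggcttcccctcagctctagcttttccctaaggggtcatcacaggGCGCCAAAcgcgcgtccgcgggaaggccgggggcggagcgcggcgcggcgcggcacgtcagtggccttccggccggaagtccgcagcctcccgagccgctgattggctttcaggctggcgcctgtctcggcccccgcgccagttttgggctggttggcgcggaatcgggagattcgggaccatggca
POLE2: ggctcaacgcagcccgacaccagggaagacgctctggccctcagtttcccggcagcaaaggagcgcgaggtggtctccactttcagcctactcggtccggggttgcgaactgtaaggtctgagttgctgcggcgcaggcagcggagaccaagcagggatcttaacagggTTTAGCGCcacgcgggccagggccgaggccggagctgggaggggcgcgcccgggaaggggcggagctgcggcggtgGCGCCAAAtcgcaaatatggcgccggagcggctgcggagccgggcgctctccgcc

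Of 27305 RefSeq promoters of this length, 3.67% held TGATGNAA, against 1.64% of the 10606 promoters matched to genes compared. It was found in 3 of 22 promoters of the ATF4 list, 6 of 16 of cytosolic tRNA synthetases, 4 of 17 of amino acid transporters and 1 of 12 of serine and one-carbon enzymes. Among members lower in KO2 it was in 3 of 17, 2 of 5, 3 of 11 and 0 of 3, in that order. Among members past no threshold it was in 0 of 4, 4 of 11, 1 of 3 and 1 of 7. No promoter of a member higher in KO2 held it. TTTNGCGC was found in 1.83% of all promoters, in 3.12% of those of genes compared and in 17 of 45 replication promoters. Within the replication list it was in 9 of 25 promoters of genes higher in KO2 and in 8 of 20 of genes past no threshold. The sterol regulatory element TCACNCCAC was in 1.15% of all promoters, in 1.09% of those of genes compared and in 1 of 21 of the cholesterol list. Within that list it was in 0 of 8 promoters of genes higher in KO2 and in 1 of 13 of genes past no threshold. The endoplasmic reticulum stress element was in 0.0806% of all promoters, in 0.132% of those of genes compared and in 7 of 26 of the chaperone list. A match is a description of letters and not a measured site.

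The columns were close in depth, from 25801499 counts in KO1 to 26798753 in NC, with 26144758 in KO2. Mitochondrially encoded genes took 20.5% of the counts in KO1, 16.9% in KO2 and 12.8% in NC. KO1 had 82849 transcripts above 0, against 95662 in KO2 and 93976 in NC. All 12 defining markers of the line were above 0 in every column, with VIM at 4695 CPM in KO1 and 2924 CPM in KO2. Markers of other cells were as follows. Leukocyte markers summed to 76.4 CPM in KO1 and 82.3 in KO2, with 8 and 6 of 15 at 0, and most of each sum came from LCP1 (73.3 and 71.8 CPM). In NC the leukocyte sum was 604 CPM with 9 at 0, and LCP1 was at 593 CPM. PTPRC, the pan-leukocyte gene, was at 0 in KO1 and 0.143 CPM in KO2. Endothelial markers summed to 36.1 CPM in NC, 137 in KO1 and 85.9 in KO2, with 5 of 10 at 0 in each knockout column, and ESAM supplied 134 and 77.7 CPM. Fibroblast and mural markers summed to 44.0 CPM in NC, 55.5 in KO1 and 44.3 in KO2, with 1, 4 and 3 of 11 at 0. Luminal breast markers, listed as low in this line, summed to 622 CPM in NC, 820 in KO1 and 701 in KO2. Of these 11 luminal markers, 5, 3 and 2 were at 0 in the same order. The part of these markers in the results below was not tested.

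KO2 and KO1 differed widely although they share a labelled genotype. A gene was called higher or lower by a size rule, namely a log2 fold of at least 1 in size (2-fold, with a prior count of 2) and an interval that excluded equality. By this rule 2113 genes were higher in KO2 (14.6%) and 1640 were lower (11.4%), which is 26.0% in either direction. The same rule called 32.9% of 14504 genes between KO1 and NC and 21.1% of 14487 genes between KO2 and NC. The log2 folds of KO2 over KO1 had an SD across genes of 1.08, with 51.4% of genes within 1.5-fold and 6.22% past 4-fold. Across genes the SD was 1.38 between KO1 and NC and 1.12 between KO2 and NC. These 3 comparisons share columns and are given side by side only. The median log2 fold of KO2 over KO1 over all genes compared was 0.03. Scaling to total counts moved that median to 0.29 and gave 3030 genes higher and 1066 lower. The deposited TPM values moved it to 0.45, with 3612 higher and 811 lower. The share of calls that were higher in KO2 was 56.3% with TMM scaling, 74.0% with total counts and 81.7% with TPM. Directions below are relative to the TMM median. Counts of list members called below stand against the shares over all genes, 14.6% higher and 11.4% lower.

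**Figure D1:**
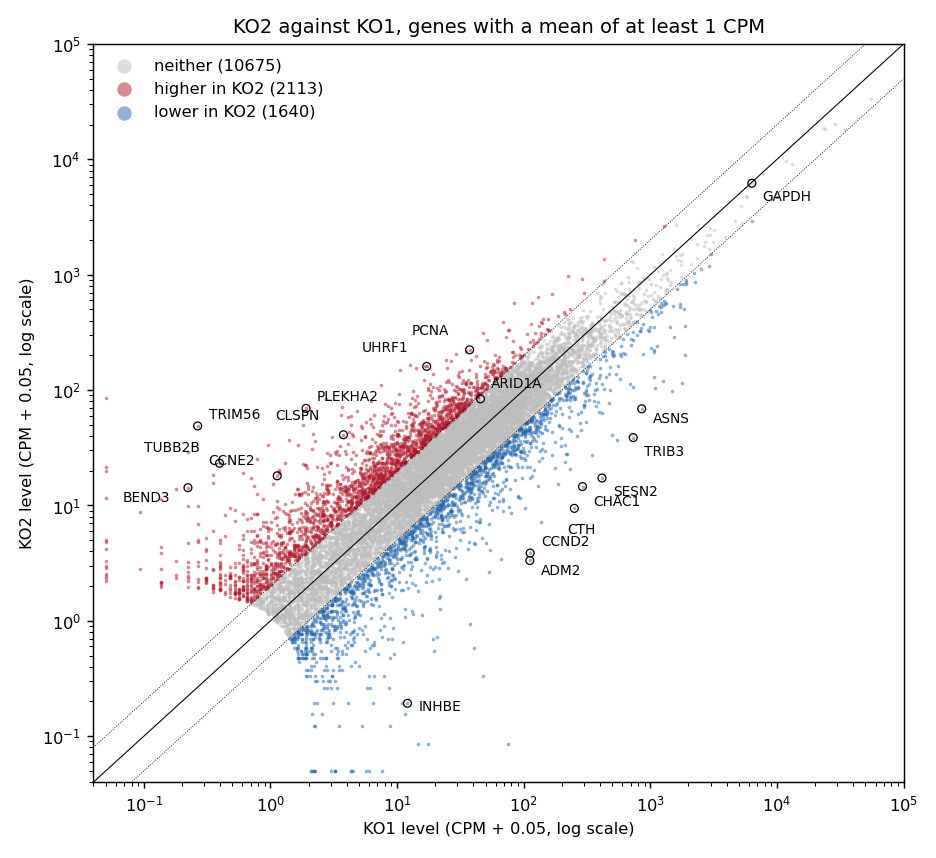
Level of each of the 14428 genes in KO1 (x axis) and KO2 (y axis), in CPM plus 0.05 on log scales, with the solid line at equality and the dotted lines at 2-fold. The 2113 genes higher in KO2 are red, the 1640 lower are blue, and ASNS, TRIB3, SESN2, CHAC1 and CTH lie together far below the line while PCNA, UHRF1, TRIM56 and PLEKHA2 lie above it.

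ARID1A itself (ENSG00000117713, hg38 chromosome 1, 26693236 to 26782104) was measured in both knockout columns. Its level was 77.5 CPM in NC, 45.5 CPM in KO1 and 83.9 CPM in KO2. KO1 was the low column, and the log2 fold of 0.88 between KO2 and KO1 did not pass the size rule. The gene count alone does not check the KO2 label. The estimated transcripts differed more than the gene did. The full-length coding transcript ARID1A-201 was at 7.02 CPM in NC, 29.5 in KO1 and 44.6 in KO2. The shorter coding transcript ARID1A-212 was at 50.5 CPM in NC, 0.216 in KO1 and 3.93 in KO2, which was 65.2%, 0.476% and 4.68% of the gene's counts. Both knockout columns were low for that transcript. ARID1A-202, also coding, separated them, with 10.4 CPM in NC, 0 in KO1 and 20.8 in KO2. The retained-intron transcript ARID1A-217 made up 7.44% of the gene in NC, with 33.4% for KO1 and 11.9% for KO2. Transcript values are the authors' estimates from shared reads, and the labels give no edited position to set them against.

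Genes of the ATF4 programme were lower in KO2. Of 25 list members compared, 20 were lower, 1 was higher and 4 passed neither way, with a median log2 fold of -2.41 against 0.03 over all genes. CHAC1 (ENSG00000128965, hg38 chromosome 15, 40952962 to 40956519), which degrades glutathione, was at 14.8 CPM in NC, 291 in KO1 and 14.5 in KO2. KO1 stood alone at the high end, a log2 fold of -4.32 for KO2 over KO1. SESN2, a leucine sensor upstream of mTORC1, was at 22.2 CPM in NC, 415 in KO1 and 17.2 in KO2, a log2 fold of -4.58. TRIB3, a pseudokinase that restrains ATF4 signalling, was at 79.7, 732 and 38.7 CPM in the same order (-4.24). ASNS, which makes asparagine, was at 131, 855 and 68.8 CPM (-3.63). In each of these genes KO2 was at or below NC while KO1 was far above it. The secreted factors followed the same order of KO1 over KO2. INHBE, an activin subunit, stood 84.2-fold higher in KO1 than in KO2 (32.5 to 311), where it was at 0.143 CPM, and NC had 0.107 CPM. ADM2, a peptide hormone, was at 6.20, 112 and 3.28 CPM. GDF15, a stress-induced hormone, kept KO2 at 36.7 CPM between NC at 3.62 and KO1 at 542. PPP1R15A, which directs dephosphorylation of eIF2, was at 203 CPM in NC, 1888 in KO1 and 203 in KO2. ATF4 RNA itself was at 384, 966 and 331 CPM, a log2 fold of -1.55. The exception was KLHL24, higher in KO2 at 29.3 CPM against 9.30 in KO1 and 8.99 in NC. Over the list, the median log2 fold was 2.36 for KO1 over NC and -0.06 for KO2 over NC.

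Many genes that supply amino acids were also lower in KO2. Of 20 amino acid transporters compared, 13 were lower, 3 higher and 4 neither, with a median of -1.52. SLC3A2, the heavy chain shared by several exchangers, was at 356 CPM in NC, 1070 in KO1 and 130 in KO2, so the columns lay on either side of NC. Its cystine-importing partner SLC7A11 was at 123, 139 and 25.7 CPM, with KO1 near NC and KO2 the low column. Its leucine-importing partner SLC7A5 was at 1006, 1874 and 362 CPM. SLC1A4, an alanine and serine transporter, was at 19.9, 103 and 9.39 CPM (-3.44). The transporters higher in KO2 were SLC1A1 (2.77 CPM in KO1 and 10.8 in KO2), SLC43A2 (4.76 and 10.4) and SLC38A7 (7.09 and 14.5). SLC43A2 and SLC38A7 did not pass with the trend on length and GC content removed (0.76 and 0.88). All 20 cytosolic aminoacyl-tRNA synthetases were compared, with 6 lower, 0 higher and a median of -0.86. GARS1, which charges glycine tRNA, was at 260 CPM in NC, 1060 in KO1 and 213 in KO2 (-2.31). AARS1 was at 160, 362 and 80.6 CPM (-2.17), and the other 4 lower members were YARS1, SARS1, CARS1 and WARS1.

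Serine and one-carbon enzymes split. Of 17 compared, 6 were lower in KO2, 2 were higher and 9 passed neither way, with a median of -0.27. All 3 enzymes of serine synthesis were among the lower. PHGDH, the first, had 0 counts in NC, 21.9 CPM in KO1 and 1.21 in KO2, a log2 fold of -4.09 between them. PSAT1, the second, was at 457, 1269 and 119 CPM (-3.41), and PSPH, the third, at 34.9, 90.3 and 21.6 CPM (-2.06). The mitochondrial folate enzymes MTHFD2 (-1.93) and SHMT2 (-1.31) were lower as well, though SHMT2 did not pass with TPM (-0.84). The 2 higher members were TYMS, which makes thymidylate (38.1 CPM in KO1 and 181 in KO2), and ALDH1L1 (0.346 and 2.78 CPM). CTH, which makes cysteine from cystathionine, was among the 15 protein-coding genes lowest in KO2, at 9.35 CPM in NC, 251 in KO1 and 9.39 in KO2 (-4.73).

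Endoplasmic reticulum chaperones and unfolded-protein genes were mixed. Of 29 compared, 4 were higher, 5 were lower and 20 neither, with a median of 0.05. Among all genes compared, 14.6% were higher and 11.4% lower. ERN1, which encodes the sensor IRE1, was lower in KO2 at 23.8 CPM against 212 in KO1 and 12.9 in NC. The chaperones HSPA5 (2921 CPM in KO1 and 1187 in KO2) and CANX (1431 and 352) were lower, while CALR was higher (430 and 883). With TPM the log2 folds of CANX and HSPA5 were -0.41 and -0.87, and neither passed. CALR fell short with TMM on nuclear protein-coding genes (0.997).

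**Figure D2:**
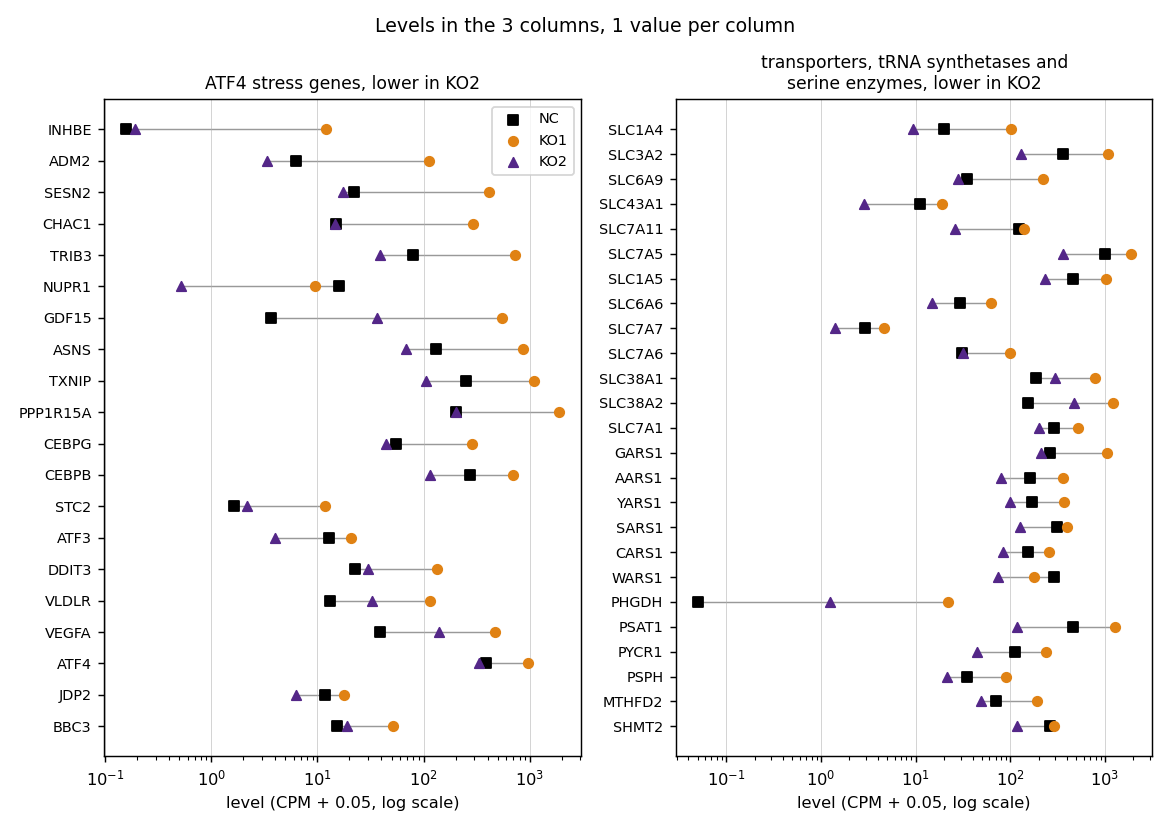
Levels in NC (squares), KO1 (circles) and KO2 (triangles), 1 value per column, in CPM plus 0.05 on a log scale, for the 20 ATF4 list members lower in KO2 and for the lower transporters, tRNA synthetases and serine enzymes. The rows were chosen for KO2 below KO1, while NC, which the choice did not use, lies near KO2 in rows such as CHAC1 and PPP1R15A; NUPR1 and WARS1 are rows in which NC is the highest.

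Replication genes stood the other way. Of 54 replication and G1 to S genes compared, 29 were higher in KO2, 0 were lower and 25 neither, with a median of 1.01. PCNA, the sliding clamp of DNA polymerases, was at 259 CPM in NC, 37.3 in KO1 and 223 in KO2, a 5.98-fold difference (5.57 to 6.43). UHRF1, which couples replication to maintenance of DNA methylation, was at 185, 17.1 and 160 CPM (3.23). CCNE2, the cyclin that partners CDK2 at S phase entry, was at 12.7 CPM in NC and 1.08 in KO1, with KO2 16.7-fold above KO1 (11.2 to 26.0). In these 3 genes KO1 was the low column and KO2 lay near NC. E2F2, a transcription factor of the programme, was at 15.8, 0.735 and 8.39 CPM (3.38), and the origin-binding subunit ORC1 at 32.9, 3.42 and 27.2 CPM (2.97). LIG1, the ligase of Okazaki fragments, was at 77.8, 13.8 and 82.6 CPM (2.58). The 2 members with the most counts, TK1 and MCM7, did not pass, with log2 folds of 0.08 and 0.47. The list median was -1.45 for KO1 over NC, with 38 of 54 lower, and -0.30 for KO2 over NC, with 0 lower.

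DNA repair genes followed the same direction. Of 44 compared, 17 were higher in KO2, 0 were lower and 27 neither, with a median of 0.77. CLSPN, an adaptor of the replication checkpoint, was at 18.4 CPM in NC, 3.72 in KO1 and 41.0 in KO2 (3.44), so that the knockout columns lay on either side of NC. BARD1, the partner of BRCA1, was at 26.3, 3.29 and 29.3 CPM (3.13). RAD54L, BRIP1 and PARP1 were higher by 2.16, 1.82 and 1.78. Mitotic genes had a median nearer to that of all genes. Of 53 G2 to M genes, 6 were higher, 1 was lower and 46 neither, with a median of 0.29. The shares over all genes were 14.6% higher and 11.4% lower. MKI67, a proliferation antigen, was at 292, 82.1 and 267 CPM (1.70), and HJURP, a centromere histone chaperone, was the lower one (-1.44, and -0.92 with TPM, which does not pass). Among 16 DNA methylation genes, 3 were higher (TET1, UHRF1 and HELLS), DNMT3B was lower (34.4 CPM in KO1 and 12.8 in KO2) and 12 passed neither way. With TPM, DNMT3B did not pass (-0.82). TET1 in KO1 rests on 2 counts.

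D-type cyclins, CDK inhibitors and p53 targets were mixed, with 8 of 25 higher, 5 lower and a median of 0.33. Among all genes compared, 14.6% were higher and 11.4% lower. The 3 D-type cyclins did not all go the same way. CCND2 was at 0.430 CPM in NC, 112 in KO1 and 3.82 in KO2 (-4.85). CCND3 was at 64.0, 13.3 and 52.1 CPM (1.97), and CCND1 at 517, 284 and 396 CPM, a log2 fold of 0.48 that did not pass. GADD45A, a stress-induced growth arrest gene, was at 59.1, 497 and 40.7 CPM (-3.61).

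Cholesterol genes were higher in KO2. Of 29 compared, 13 were higher, 1 was lower and 15 neither, with a median of 0.92. HMGCS1, an early enzyme of the pathway, was at 139 CPM in NC, 32.4 in KO1 and 114 in KO2 (1.82). IDI1, which isomerises isopentenyl diphosphate, was at 111, 29.3 and 109 CPM (1.89), and FDFT1, which makes squalene, at 131, 25.3 and 84.1 CPM (1.73). In these genes KO1 was below both other columns. ABCG1, which exports cholesterol, was the member lower in KO2 (-1.77).

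**Figure D3:**
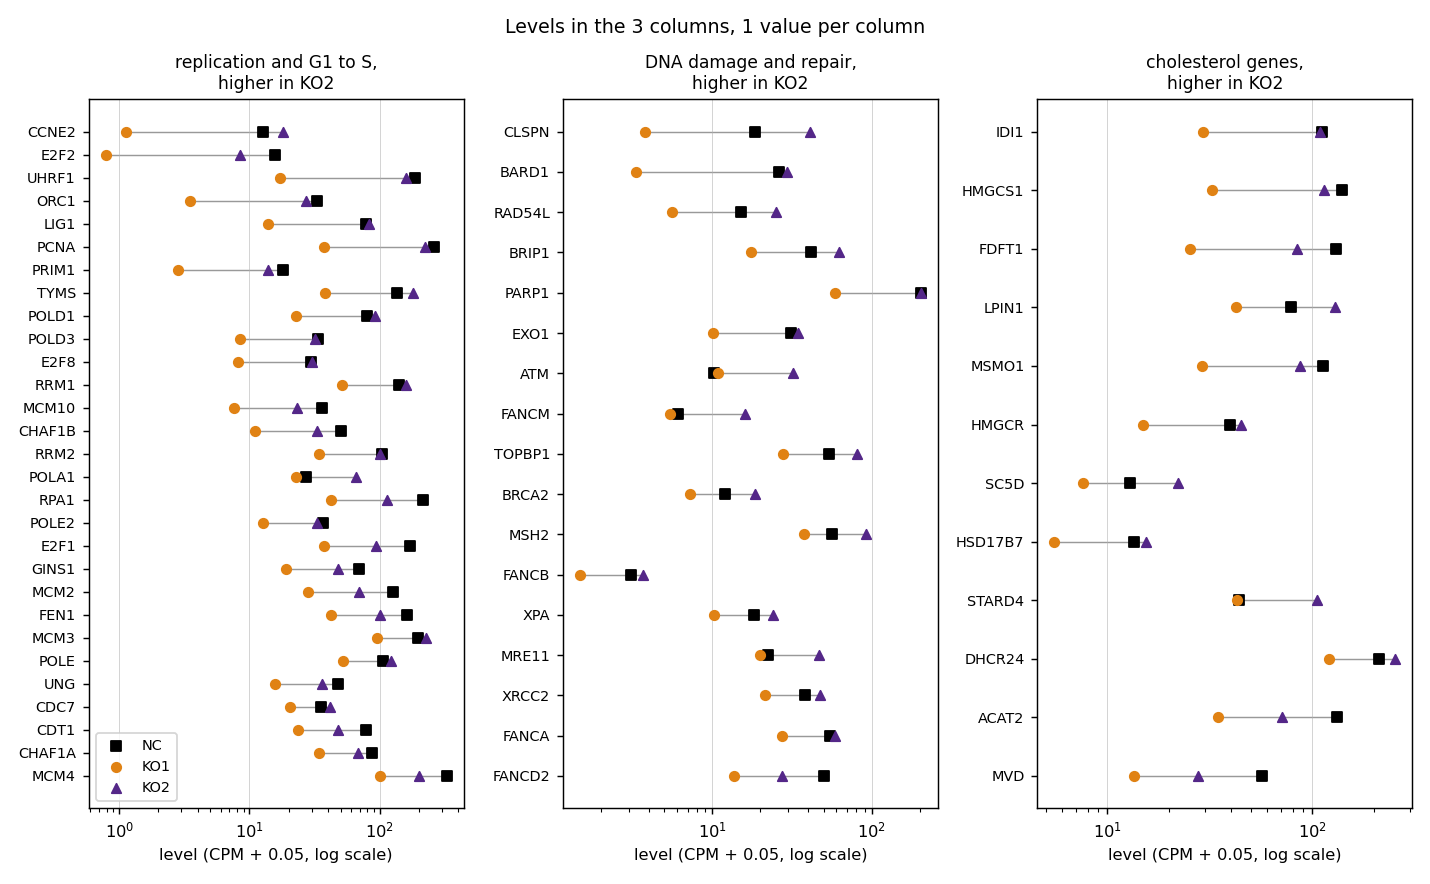
Levels in NC (squares), KO1 (circles) and KO2 (triangles), 1 value per column, in CPM plus 0.05 on a log scale, for list members higher in KO2: 29 replication, 17 repair and 12 of the 13 cholesterol genes. The circle of KO1 lies left of the triangle of KO2 in every row because the rows were chosen for it, while NC, which the choice did not use, lies nearer KO2 in rows such as PCNA and IDI1 and nearer KO1 in ATM, FANCM, MRE11 and STARD4.

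Single genes with the widest differences included several near off in one column. TRIM56 (ENSG00000169871, hg38 chromosome 7, 101085439 to 101097967), a ubiquitin ligase of antiviral signalling, was at 30.4 CPM in NC, 0.216 in KO1 and 48.8 in KO2. The chromatin factor BEND3 was at 16.8, 0.173 and 14.2 CPM, and the tubulin TUBB2B at 36.8, 0.346 and 23.2 CPM. PLEKHA2, a phosphoinositide-binding adaptor, was at 77.9, 1.86 and 69.4 CPM. KO1 was the low column in all 4, and none of them shares exonic bases with another gene on its strand. PDP2, a pyruvate dehydrogenase phosphatase, differed in that KO2 was the high column, at 18.4 CPM against 0.303 in KO1 and 1.29 in NC. On the lower side, the ubiquitin ligase RNF125 was at 1.65 CPM in NC, 11.5 in KO1 and 0.107 in KO2. That KO2 value rests on 3 counts, which is the floor. ALOX5AP, which serves leukotriene synthesis, was at 4.23, 53.2 and 2.61 CPM. ALPK2, a kinase, was at 18.7, 19.1 and 0.643 CPM, so that there KO2 was the low column.

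Of the 15 protein-coding genes highest in KO2, 9 overlap another gene on the same strand, and for 8 of them the difference fell short of 2-fold once counts of the overlapping genes were added, an alternative chosen after the data were seen. PEDS1-UBE2V1, a read-through of adjacent genes, had 0 counts in KO1 and 85.2 CPM in KO2, at least 657-fold higher against a floor of 3 counts in that column. Summed with its overlapping genes it was at 203 CPM in KO1 and 241 in KO2, a log2 fold of 0.25. SLCO1B3-SLCO1B7 (0 and 19.9 CPM) came to 0.04 in the same way, INO80B-WBP1 to 0.22, PCDHGC3 to 0.66 and ARPIN-AP3S2 to -0.15. Among the 15 lowest, TVP23C-CDRT4 came to -0.82 and KBTBD11-OT1 to 0.58. These genes are reported as uncertain. Among genes that are not protein-coding, MIR3142HG had 0 counts in KO1 and NC and 21.5 CPM in KO2, and it kept a log2 fold of 7.50 when summed. LINC00511 was at 17.2, 3.24 and 27.8 CPM. VLDLR-AS1 was lower in KO2, with KO1 at 19.6 CPM and 39.3-fold above KO2 (23.2 to 72.4), beside VLDLR on the other strand at 13.2, 115 and 32.4 CPM. The sources do not say whether the counting used strand, so reads of this pair cannot be told apart.

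Inflammatory and immediate-early genes leaned lower in KO2, with exceptions. Among all genes compared, 11.4% were lower and 14.6% higher. Of 34 NF-kB regulators, cytokines and chemokines, 11 were lower, 5 higher and 18 neither, with a median of -0.67. The cytokine IL1A was at 48.0 CPM in NC, 186 in KO1 and 15.3 in KO2 (-3.60), and IL6 at 78.9, 385 and 78.2 CPM. The receptor IL7R was higher in KO2, at 10.9 CPM against 1.08 in KO1, with NC at 88.2 CPM above both. Of 20 immediate-early factors, 8 were lower, 4 higher and 8 neither, with a median of -0.62. EGR1 was at 5.80, 169 and 27.5 CPM (-2.62), and the orphan receptor NR4A2 was higher (4.63 CPM in KO1 and 22.7 in KO2). ERK feedback inhibitors and ETV factors divided into 5 lower and 4 higher of 18. DUSP1, a MAP kinase phosphatase, was lower (198 and 32.8 CPM), and ETV1 was higher (4.24 and 59.3 CPM), as was the feedback inhibitor SPRY1 (2.90 and 23.3 CPM). Of 11 EGFR family receptors and ligands, 3 were lower and 0 higher, with a median of -0.43. The ligand AREG was at 4.98, 97.7 and 17.2 CPM, and EGFR, at 152, 427 and 317 CPM, did not pass (-0.43).

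TGF-beta, matrix and integrin genes had medians above that of all genes, while protease and YAP lists had medians below it. Over all genes, 14.6% were higher and 11.4% lower. Median transcript lengths were 4613 bases for TGF-beta, 6387 for matrix and 5037 for integrin genes, against 2746 over all genes. Nuclear protein-coding genes of 4 to 8 kb had a median of 0.28 as a class. Across settings, the lowest TGF-beta, matrix and integrin medians were 0.33, 0.245 and 0.26. The protease and YAP medians were above 0 with TPM (0.18 and 0.10) and total counts (0.0017 and 0.068). Of 27 TGF-beta pathway genes, 11 were higher, 5 lower and 11 neither, with a median of 0.59. The ligand BMP4 was at 58.0 CPM in NC, 14.1 in KO1 and 155 in KO2 (3.46). SMAD6, an inhibitor of BMP signalling, was at 12.9, 0.562 and 5.53 CPM, and the BMP targets ID1 and ID3 were higher by 1.75 and 2.37. TGIF1, a repressor of SMAD activity, was lower (-2.03). Of 34 collagens, laminins and matrix glycoproteins, 8 were higher and 3 lower, with a median of 0.48. The fibrillin FBN1 was at 68.7, 14.4 and 77.1 CPM, whereas LAMB3, a laminin beta chain, was at 254, 1078 and 224 CPM. LAMA3, a laminin alpha chain, was higher (1.95). Of 13 integrins, 3 were higher and 0 lower, among them ITGAV at 37.2, 13.9 and 61.1 CPM. Matrix proteases and their inhibitors gave 5 higher and 6 lower of 22, with a median of -0.26, and included TIMP3 higher (48.0 and 311 CPM) and MMP1 lower (17.1 and 3.43 CPM). YAP and TAZ targets gave 6 higher and 5 lower of 26, with a median of -0.19. TEAD1, the DNA-binding partner of YAP, was at 187, 35.1 and 218 CPM.

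Epithelial genes gave 7 higher and 2 lower of 24, with a median of 0.00, where 14.6% of all genes were higher and 11.4% lower. The claudin CLDN1 was at 9.06 CPM in NC, 348 in KO1 and 27.2 in KO2 (-3.67), while the desmosomal cadherin DSC2 had 0 counts in NC and was at 3.29 CPM in KO1 and 15.5 in KO2 (2.21). Mesenchymal genes gave 4 higher and 2 lower of 14. S100A4 was at 172, 41.7 and 137 CPM, and the repressor SNAI2 was lower (147 and 61.7 CPM) but did not pass with TPM (-0.82).

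Interferon-stimulated genes were called at about the share of all genes, of which 26.0% were called in either direction. Of 48 interferon-stimulated genes, 9 were higher, 3 lower and 36 neither (median 0.21), and of 26 antigen presentation genes, 1 was higher, 0 lower and 25 neither (median 0.14). OAS3, a double-stranded RNA sensor, was at 37.3, 8.05 and 33.0 CPM, and ISG15 was lower in KO2 at 83.7 CPM against 219 in KO1, a difference that did not pass with TPM (-0.97). CD74, the invariant chain, was at 35.9, 471 and 365 CPM, and so the 2 knockout columns were close (-0.37). NRF2 and glutathione genes gave 5 higher and 7 lower of 35 (median -0.23). For some of them both knockout columns were below NC. AKR1C1, an aldo-keto reductase, was at 128 CPM in NC, 1.12 in KO1 and 2.64 in KO2, and TXNRD1 at 763, 323 and 90.7 CPM. Between KO2 and KO1, TXNRD1 did not pass with TPM (-0.78), nor AKR1C1 with the length and GC trend removed (0.94). Glucose uptake and glycolysis genes gave 6 higher and 1 lower of 30 (median 0.29), with LDHA at 1285 CPM in KO1 and 2651 in KO2. Of 28 BAF, PBAF and ncBAF subunits, 6 were higher, 1 lower and 21 neither (median 0.10). PBRM1, which defines PBAF, was at 57.7, 18.4 and 97.9 CPM (2.40), with ARID2, PHF10, SMARCC2 and DPF1 higher by 1.03 to 1.25 and BCL7B lower (-1.06). With the length and GC trend removed, ARID2 (0.72) and BCL7B (-0.88) did not pass. Lysosomal and autophagy genes gave 3 higher and 7 lower of 31 (median -0.02).

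**Figure D4:**
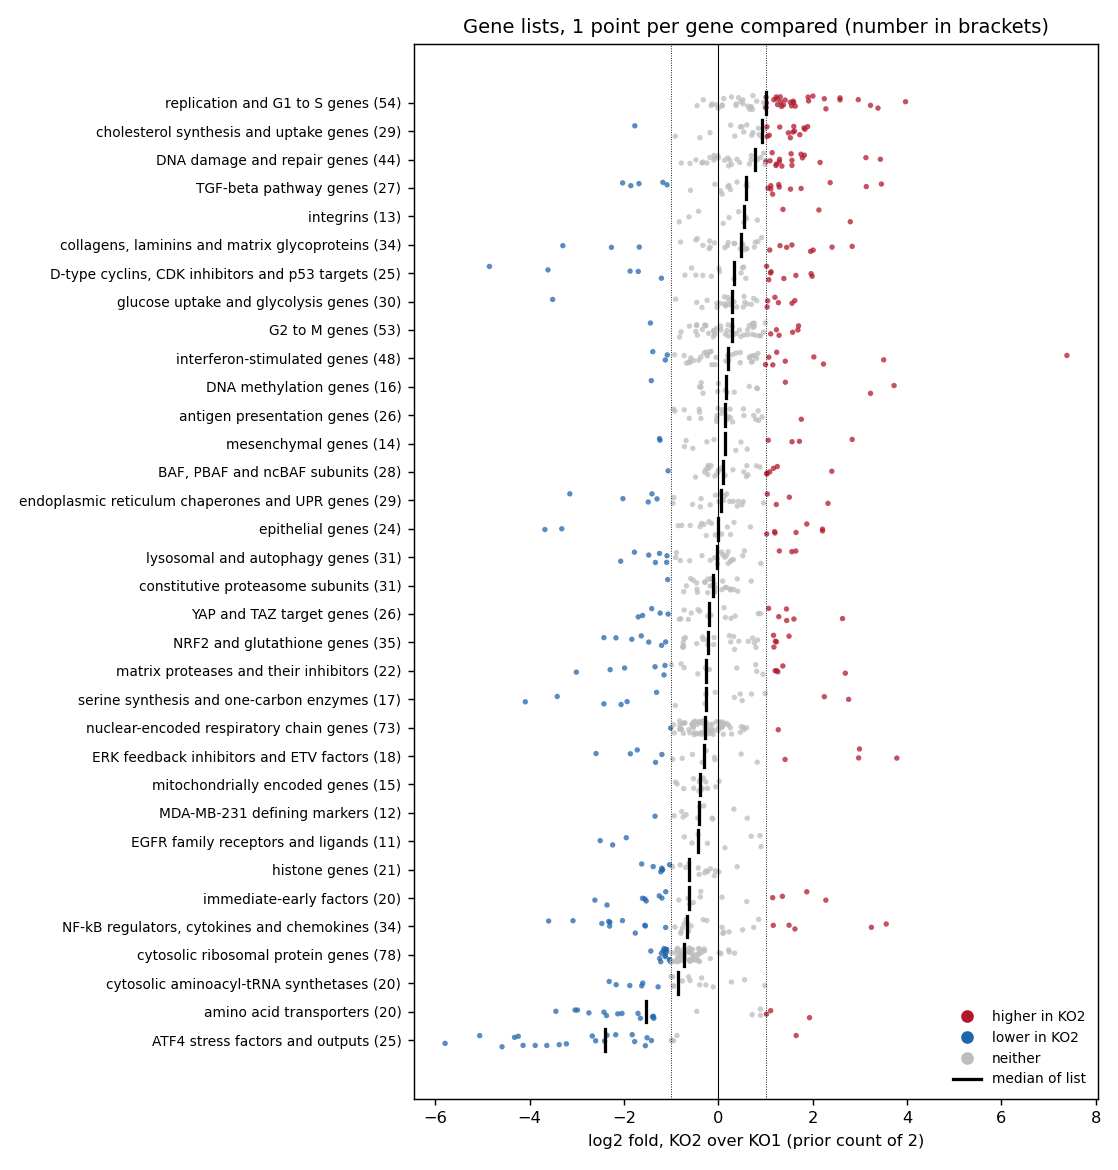
Log2 fold of KO2 over KO1 (x axis) for each gene of the lists with at least 10 genes compared, 1 point per gene, red where higher in KO2, blue where lower, grey where neither, with the list median as a black bar. The medians run from 1.01 for replication genes to -2.41 for the ATF4 list, and points of both colours appear in many lists between them.

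Ribosomal protein genes were partly lower in KO2, and genes with short transcripts leaned lower as a class. Over the settings run, the histone median ran from -0.80 to -0.0032 and that of mitochondrially encoded genes from -0.38 to 0.15. Of 78 cytosolic ribosomal protein genes, 15 were lower, 0 higher and 63 neither, with a median of -0.73 and a median transcript length of 936 bases, against 2746 bases over all genes compared. Of the 664 nuclear protein-coding genes under 1 kb, 18.5% were lower and 5.57% higher, with a median of -0.43. RPS13, of the small subunit, was at 734 CPM in KO1 and 272 in KO2. Of 21 genes of the histone list, 7 were lower and 0 higher (-0.62). The 15 mitochondrially encoded genes had a median of -0.38 with 0 past the rule, nuclear-encoded respiratory chain genes a median of -0.28 with 1 of 73 in each direction, and proteasome subunits a median of -0.12 with 1 of 31 lower. With the trend on length and GC content removed, these medians were -0.052 for histones, 0.15 for mitochondrially encoded, 0.077 for respiratory chain and 0.14 for proteasome genes. With TPM they were -0.0032, 0.044, 0.087 and 0.27, and RPS13 did not pass with the length and GC trend removed (-0.84). The ribosomal protein median was -0.29 with that trend removed and -0.32 with TPM.

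Transcript length moved with the difference over the whole transcriptome. Among nuclear protein-coding genes the median log2 fold was -0.43 for the 664 genes under 1 kb, -0.17 at 1 to 2 kb, 0.10 at 2 to 4 kb, 0.28 at 4 to 8 kb and 0.42 for the 722 genes over 8 kb. The share higher in KO2 went from 5.57% in the shortest class to 22.9% in the longest, and the share lower from 18.5% to 5.68%. The TPM-weighted mean transcript length of nuclear protein-coding genes was 1840 bases in KO1, 2091 in KO2 and 1890 in NC. Processed pseudogenes had a median of -0.62, lincRNA genes of -0.35 and antisense genes of -0.33. Genes of 100 CPM or more had a median of -0.20. By chromosome, leaving out Y with 1 gene and the mitochondrial genome, the median ran from -0.09 on chromosome 16 to 0.23 on chromosome 15. With the trend on length and GC content removed, the list medians were -2.50 for ATF4, -1.68 for transporters, 0.98 for replication, 0.69 for repair and 0.94 for cholesterol, close to those above, and -0.29 for ribosomal proteins.

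**Figure D5:**
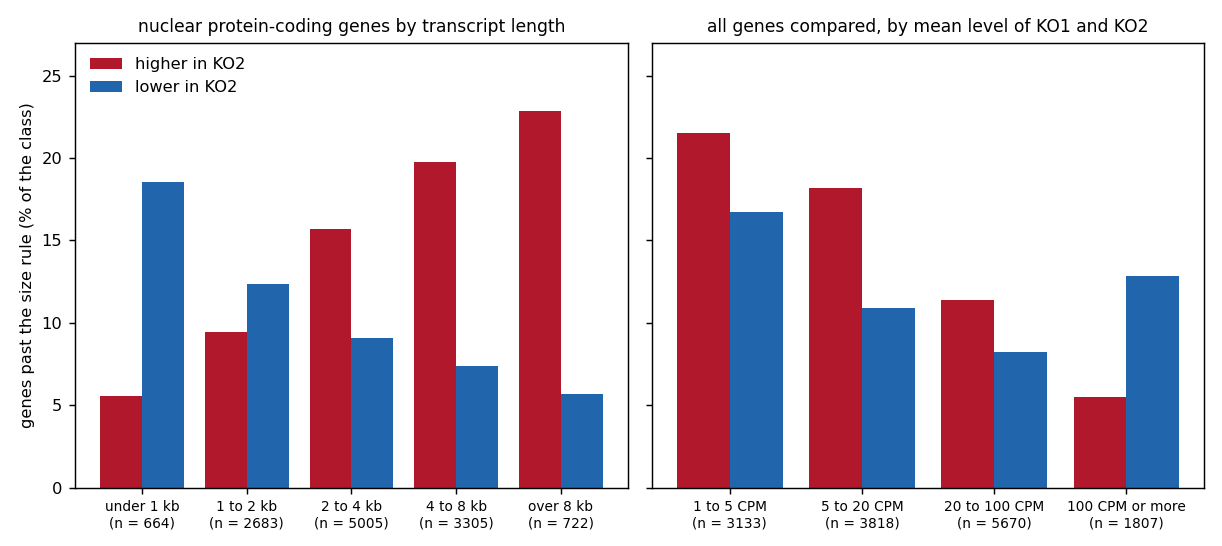
Share of genes past the size rule (y axis, % of the class), higher in KO2 (red) and lower in KO2 (blue), for nuclear protein-coding genes by transcript length (left) and for all genes compared by mean level of KO1 and KO2 (right). The red bars rise from 5.57% to 22.9% with length and the blue bars fall from 18.5% to 5.68%, and blue exceeds red among genes of 100 CPM or more.

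The estimated transcript in use also differed. Of 9096 genes with a mean of at least 10 CPM, 1901 (20.9%) had another most abundant transcript in KO2 than in KO1 and a share that differed by at least 30 percentage points. Of these, 539 also passed the size rule as genes. The KO1 transcript was the shorter in 894 and the longer in 998, and it was a retained-intron transcript in 234 against 153 for KO2. The share difference reached 100 points in 13 genes, from which examples were taken in order of name. HPSE, which encodes heparanase, had all counts on HPSE-202 in KO1 and none on it in KO2, where HPSE-201 held 87.4%, as it held 99.7% in NC. PARP14, an interferon-stimulated ADP-ribosyltransferase, had all KO1 counts on PARP14-201, a nonsense-mediated decay transcript, while the coding PARP14-202 held 94.0% in KO2 and 98.7% in NC. ANKRD33B ran the other way, with ANKRD33B-201 holding all of KO1 and 99.6% of NC, and ANKRD33B-202 all of KO2. That gene was at 52.2 CPM in NC, 34.7 in KO1 and 2.25 in KO2, where ANKRD33B-202 rests on 63 counts. ARHGAP19, CDC40, CORO2A and ELOVL7 also reached 100 points. Transcripts that share most of their sequence can trade estimated counts, so these shares carry an assignment error that 1 column per group does not show.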

How the data were processed

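RNA was extracted with Trizol and sequenced from stranded total RNA libraries, per the labels. The deposited table gives, per the file headers, Count, TPM and FPKM for each transcript. The Count values are treated as estimated counts by the authors (expected counts, rounded up): among transcripts with small counts, 82.0% of 111 in NC, 86.5% of 208 in KO1 and 95.2% of 147 in KO2 lay 0 to 1 above the count their deposited TPM implies, within 0.05. TPM is the authors' length-scaled value and served for mean lengths and as an alternative. The submitters' processing notes name CASAVA, Bowtie2, featureCounts and hg38; versions and the transcript estimator are not given in the sources used here. Each of the 3 groups has 1 Count and 1 TPM column, matched by name; the 3 FPKM columns enter no value given here, though their relation to Count also led to reading Count as rounded-up estimates.

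Counts were summed per gene ID and scaled by TMM (edgeR 4.0.16, R 4.3.3). The planned quasi-likelihood test needs replicate columns and could not be fitted. In its place stands the size rule, with an exact conditional binomial (Clopper-Pearson) 95% interval, a prior count of 2 and a mean of at least 1 CPM. Floors are 3 counts. Intervals cover counting error only, and reads without molecular identifiers are not independent molecules. The rule and its code were tested on simulated data drawn with counting error only. That check does not cover spread between cultures or error in assigning reads to transcripts. Lengths, types and overlaps come from GENCODE 29, and whether the authors used it is not given.

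The comparison and the 38 gene lists (1151 members, 1148 matched, 1019 compared, counting a gene once per list) were chosen with earlier results of these data known. Named genes are ARID1A, the 15 highest and 15 lowest protein-coding genes and 4 and 4 others with a mean of at least 5 CPM, from each list its 2 genes of highest level and at most 5 past the size rule in each direction, and 8 transcript differences; a few of them are not reported here. ASNS, GDF15, NUPR1, PCNA, POLA1, POLE2, IL6, VLDLR, PTPRC, ATM, FANCM, MRE11, STARD4, WARS1, other genes drawn only in plots and the printed promoters were chosen after their values were seen, as were the classes of length and level. DESeq2 1.42.0 gave alternative size factors.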

Additional observations from a re-analysis of the deposited data

Results flagged for a closer look

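The 87 genes whose knockout columns passed the size rule on opposite sides of NC comprise 37 with KO1 higher and KO2 lower and 50 with the reverse. The same NC column enters both sides, 1 column per group allows no test, and the difference was not tested for any of them. They include 16 named genes, for which the log2 fold of KO2 over KO1 follows. Above NC in KO1 and below it in KO2 were the pseudokinase TRIB3 (-4.24), the keratin KRT34 (-4.27), the mitochondrial import factor GRPEL2 (-4.25), the cytokine IL1A (-3.60), the lactate transporter SLC16A1 (-3.51), the amino acid transporters SLC1A4 (-3.44) and SLC3A2 (-3.04), the serine enzyme PSAT1 (-3.41), the proline enzyme PYCR1 (-2.43) and the read-through TVP23C-CDRT4 (-7.04). Below NC in KO1 and above it in KO2 were the checkpoint adaptor CLSPN (3.44), the ligand BMP4 (3.46), the transcription factor ETV1 (3.78), the ERK inhibitor SPRY1 (2.97), KCTD7 (5.38) and the protocadherin PCDHGC3 (6.87). Summed with overlapping genes, TVP23C-CDRT4 was at -0.82, KCTD7 at 0.51 and PCDHGC3 at 0.66.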

How the results depend on the processing

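No paired analysis was possible because the columns carry no replicate number and each group has 1 column; for the same reason no fit left out a replicate. Of 245 named genes past the size rule, 222 passed with total counts, 244 with DESeq2 size factors, 245 with a prior count of 0.5, 209 with TPM, 224 with the GC and length trend removed and 231 when summed with overlapping genes (chosen after the data were seen); with TMM on nuclear protein-coding genes 234 of 237 did. The cause of the changes below was not tested, except that stricter thresholds or filters keep fewer genes by construction.

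Genes higher in KO2 numbered 2113, but 537 at a log2 fold of at least 2 and 3612 with TPM. Genes lower numbered 1640, but 1066 with total counts, 2570 with no filter, 361 at a log2 fold of at least 2 and 811 with TPM. Transcript differences numbered 1901, but 668 at 50 CPM and 1259 at 50 points. Single genes that changed direction were MITF with TPM (0.36) and, summed with overlapping genes, KBTBD11-OT1 (0.58), TGFB2-OT1 (0.058) and ARPIN-AP3S2 (-0.15).

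List medians kept their direction under DESeq2 size factors and a prior count of 0.5 in all 38 lists. Those of the ATF4, transporter, tRNA synthetase, replication, repair and cholesterol lists kept it under every alternative run, with ranges of -2.50 to -2.16, -1.68 to -0.84, -0.92 to -0.41, 0.97 to 1.47, 0.69 to 1.05 and 0.88 to 1.30. With TPM the medians changed sign for serine enzymes (0.0055), NRF2 (0.24), ERK (0.11), YAP (0.10), proteases (0.18), mitochondrial (0.044), respiratory chain (0.087), proteasome (0.27), lysosomal (0.46), MDA-MB-231 marker (0.027) and luminal (0.40) genes. With TPM they moved for chaperones (0.50), replication (1.47), G2 to M (0.78), glycolysis (0.85), histones (-0.0032), ribosomal proteins (-0.32), BAF subunits (0.66) and leukocyte markers (2.44). With total counts they changed sign for NRF2 (0.032), YAP (0.068), protease (0.0017), proteasome (0.14), lysosomal (0.24) and luminal (0.17) genes, and moved for ribosomal (-0.47), mitochondrial (-0.12) and respiratory chain (-0.027) genes. With the GC and length trend removed they changed sign for chaperone (-0.0019), DNA methylation (-0.049), NRF2 (0.052), mitochondrial (0.15), respiratory chain (0.077), proteasome (0.14) and lysosomal (0.0099) genes, and moved for histones (-0.052) and ribosomal proteins (-0.29). At 5 CPM the sign changed for epithelial (-0.064), mesenchymal (-0.091), leukocyte (-0.030) and fibroblast (-0.45) genes, with no filter for mesenchymal (-0.091) and luminal (0.028) genes, with the mean over 3 columns and with overlapping genes for epithelial genes (-0.064 in both), and with nuclear TMM for fibroblast markers (-0.00047). At this depth, 3 counts correspond to 0.130 CPM in KO1 and 0.107 CPM in KO2, below which a level cannot be told from 0.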
